A study of Mus musculus with 4 samples.

Results

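The Kupffer identity genes described here are 9 genes, Clec4f, Timd4, Vsig4, Marco, Cd5l, Cd163, Folr2, C6 and Nr1h3, chosen by symbol out of 31053 genes in the deposited matrix. No level entered the rule, but the members were chosen with earlier results of these data known. They were followed in single-cell RNA profiles of livers of 8-week-old male mice bearing MC38 tumours. MC38 is a colorectal carcinoma line of the mouse, and the model is that of liver metastasis driven by the stress of an operation. The study compared hepatic immune cells after exercise before the operation with those of sedentary mice. Livers were taken 3 weeks after tumour injection, the non-parenchymal cells were separated from hepatocytes, and cells bearing CD45, a surface protein of blood-derived cells, were enriched with beads. The groups were sedentary mice (libraries Sed 1 and Sed 2) and mice exercised before the operation (Ex 1 and Ex 2). All 4 libraries came from tumour-bearing mice, so no tumour-free level was analysed here. The labels name no strain and do not say that a library came from 1 animal. The p-values for exercised against sedentary mice thus measure only the spread between these libraries, which may be technical. Those for cells with against cells without a Timd4 UMI come from a fit with the library as a block. They measure only how far that difference varied between these libraries.

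Kupffer cells are the macrophages that line the liver sinusoids and take up particles, microbes and dying cells from portal blood. Their identity is held by signals from neighbouring endothelial, stellate and liver parenchymal cells and by transcription factors, among them LXRα, the oxysterol receptor that Nr1h3 encodes. When Kupffer cells are lost, monocytes that enter the empty niche acquire Clec4f early and Timd4 late, which is why Timd4 is widely used to tell long-lived Kupffer cells from recent ones.

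By role, the members fall into surface receptors for particles and cells, secreted proteins and 1 nuclear receptor. All 9 are annotated as protein-coding in GENCODE vM21 on build GRCm38. Clec4f (ENSMUSG00000014542, chromosome 6, 83644542 to 83656187, minus strand) encodes a C-type lectin that binds galactose-bearing sugars. Timd4 (ENSMUSG00000055546, chromosome 11, 46810800 to 46844332, plus strand) encodes a receptor for phosphatidylserine on dying cells. Vsig4 (ENSMUSG00000044206, chromosome X, 96247203 to 96293438, minus strand) encodes the complement receptor CRIg, which binds C3 fragments. Marco (ENSMUSG00000026390, chromosome 1, 120474538 to 120505024, minus strand) encodes a class A scavenger receptor. Cd163 (ENSMUSG00000008845, chromosome 6, 124304656 to 124330527, plus strand) encodes the receptor for haemoglobin bound to haptoglobin. Folr2 (ENSMUSG00000032725, chromosome 7, 101839988 to 101857194, minus strand) encodes folate receptor beta. Cd5l (ENSMUSG00000015854, chromosome 3, 87357881 to 87371073, plus strand) encodes AIM, a secreted scavenger protein. C6 (ENSMUSG00000022181, chromosome 15, 4727175 to 4814967, plus strand) encodes a component of the membrane attack complex. Nr1h3 (ENSMUSG00000002108) lies on chromosome 2 from 91184061 to 91202834 on the minus strand.

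The 250 bases before the RefSeq start (GRCm38.p6) are shown for Timd4 and for Marco, Cd163 and C6, the 3 members that were higher in Timd4-positive cells. They run 5′ to 3′ on the strand of the gene, and capitals mark matches to the motifs searched. The windows are chr11:46810549-46810798, chr1:120505025-120505274, chr6:124304401-124304650 and chr15:4726960-4727209.
Timd4: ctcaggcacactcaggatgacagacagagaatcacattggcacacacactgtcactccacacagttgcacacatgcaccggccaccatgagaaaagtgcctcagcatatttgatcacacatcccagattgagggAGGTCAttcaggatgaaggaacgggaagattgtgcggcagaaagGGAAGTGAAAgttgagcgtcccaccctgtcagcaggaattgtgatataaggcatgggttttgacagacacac
Marco: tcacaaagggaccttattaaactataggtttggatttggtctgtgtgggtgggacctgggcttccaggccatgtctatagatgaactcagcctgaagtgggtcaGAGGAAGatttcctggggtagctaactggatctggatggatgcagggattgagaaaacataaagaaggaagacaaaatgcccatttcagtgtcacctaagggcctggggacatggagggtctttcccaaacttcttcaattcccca
Cd163: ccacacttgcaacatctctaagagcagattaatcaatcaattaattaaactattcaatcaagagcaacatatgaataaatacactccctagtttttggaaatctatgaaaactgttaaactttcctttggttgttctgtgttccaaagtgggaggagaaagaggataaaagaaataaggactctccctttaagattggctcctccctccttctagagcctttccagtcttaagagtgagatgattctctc
C6: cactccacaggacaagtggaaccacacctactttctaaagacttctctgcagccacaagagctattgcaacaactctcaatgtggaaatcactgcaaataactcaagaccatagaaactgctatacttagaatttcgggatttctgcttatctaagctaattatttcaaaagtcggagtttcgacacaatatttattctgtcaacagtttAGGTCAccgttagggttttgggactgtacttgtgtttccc

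Shorter windows of 30 bases show the matches of 3 other members, also on the strand of the gene, at chr7:101857307-101857336, chr3:87357819-87357848 and chr6:83656121-83656150.
Folr2: taaatcaccaGGAAGTGAAActcttcaatg
Cd5l: tctggccaTGCTGAACTCAGCAcatctggc
Clec4f: gggaagttgtccTGACCTcaggagaacata
The motifs were picked with these sequences in view and searched on both strands in 11 upstream windows of the 9 genes, since Nr1h3 and Folr2 have a pair of starts each. GGAA, any pair of bases and GAAA, the composite site of ETS and IRF factors such as PU.1 and IRF8, matched in Timd4 and Folr2, in both as GGAAGTGAAA, and in 2.3% of all 32851 windows of that length. GAGGAAG, a site of the PU.1 type, matched in Marco and Cd5l and in 10.6% of all windows. TGCTGA, any pair of bases and TCAGCA, the palindrome bound by MAF factors, matched in Cd5l and in 0.00609% of all windows. AGGTCA, the nuclear receptor half-site, matched in Timd4, C6 and Clec4f, in Clec4f on the opposite strand as TGACCT, and in 14% of all windows. The windows of Vsig4, Cd163 and Nr1h3 held none of these letters. A match is a string of letters in this window, and factor binding was not measured.

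After filtering, 23840 cells remained, 6839 in Sed 1, 7141 in Sed 2, 5763 in Ex 1 and 4097 in Ex 2, with 32896591, 35690649, 28851693 and 20831952 UMIs and median depths from 3286 to 3749 UMIs per cell. Ptprc, the gene of CD45, had a UMI in 76.2% to 81.9% of the cells of each library. Cells were clustered without the 9 members and clusters were named by other markers, so no member level entered the clusters or their names. Some of these markers followed the members over clusters, as given below. The labels give hepatic immune cells, yet endothelial-like and hepatocyte-gene clusters were also present. A class against a class is a description with no test, because the clusters come from the same cells. Levels are UMIs per 1000000 (CPM) over the summed cells of a library, and since reads come from the 3′ end no gene length enters. In bulk sums of a class, fewer expressing cells and less RNA per cell cannot be told apart.

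Across 6 classes (Kupffer-like, other macrophage-like, monocyte-like, endothelial-like, B-like and T-like), all 9 members had their highest level in Kupffer-like cells, and the lowest Kupffer-like library was above every library of the other 5 classes. A pair of unnamed clusters also held member RNA and stood outside these classes: one led by Gm26917 with hepatocyte genes had Clec4f at 1871, 1810, 6.53 and 321 CPM in Sed 1, Sed 2, Ex 1 and Ex 2, and one with haemoglobin genes and Clec4g had 0, 86.3, 274 and 191 CPM. The Kupffer-like class held 336, 1206, 548 and 132 cells in Sed 1, Sed 2, Ex 1 and Ex 2. The lectin gene Clec4f stood at 2413, 4851, 1340 and 2060 CPM in these libraries. The secreted protein gene Cd5l stood at 3682, 4797, 2604 and 2719 CPM. These were the highest of the 9, and both exercised libraries were below both sedentary ones. Vsig4 had 1169, 1924, 965 and 1103 CPM. Marco had 604, 1878, 965 and 1378 CPM, with Sed 1 lowest. Timd4 had 53.2, 425.6, 152 and 262 CPM, with the sedentary libraries the lowest and the highest. The remaining 4 members, Cd163, Folr2, C6 and Nr1h3, lay between 140 and 812 CPM. Nr1h3 had the narrowest range, from 290.1 to 423 CPM.

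**Figure D1:**
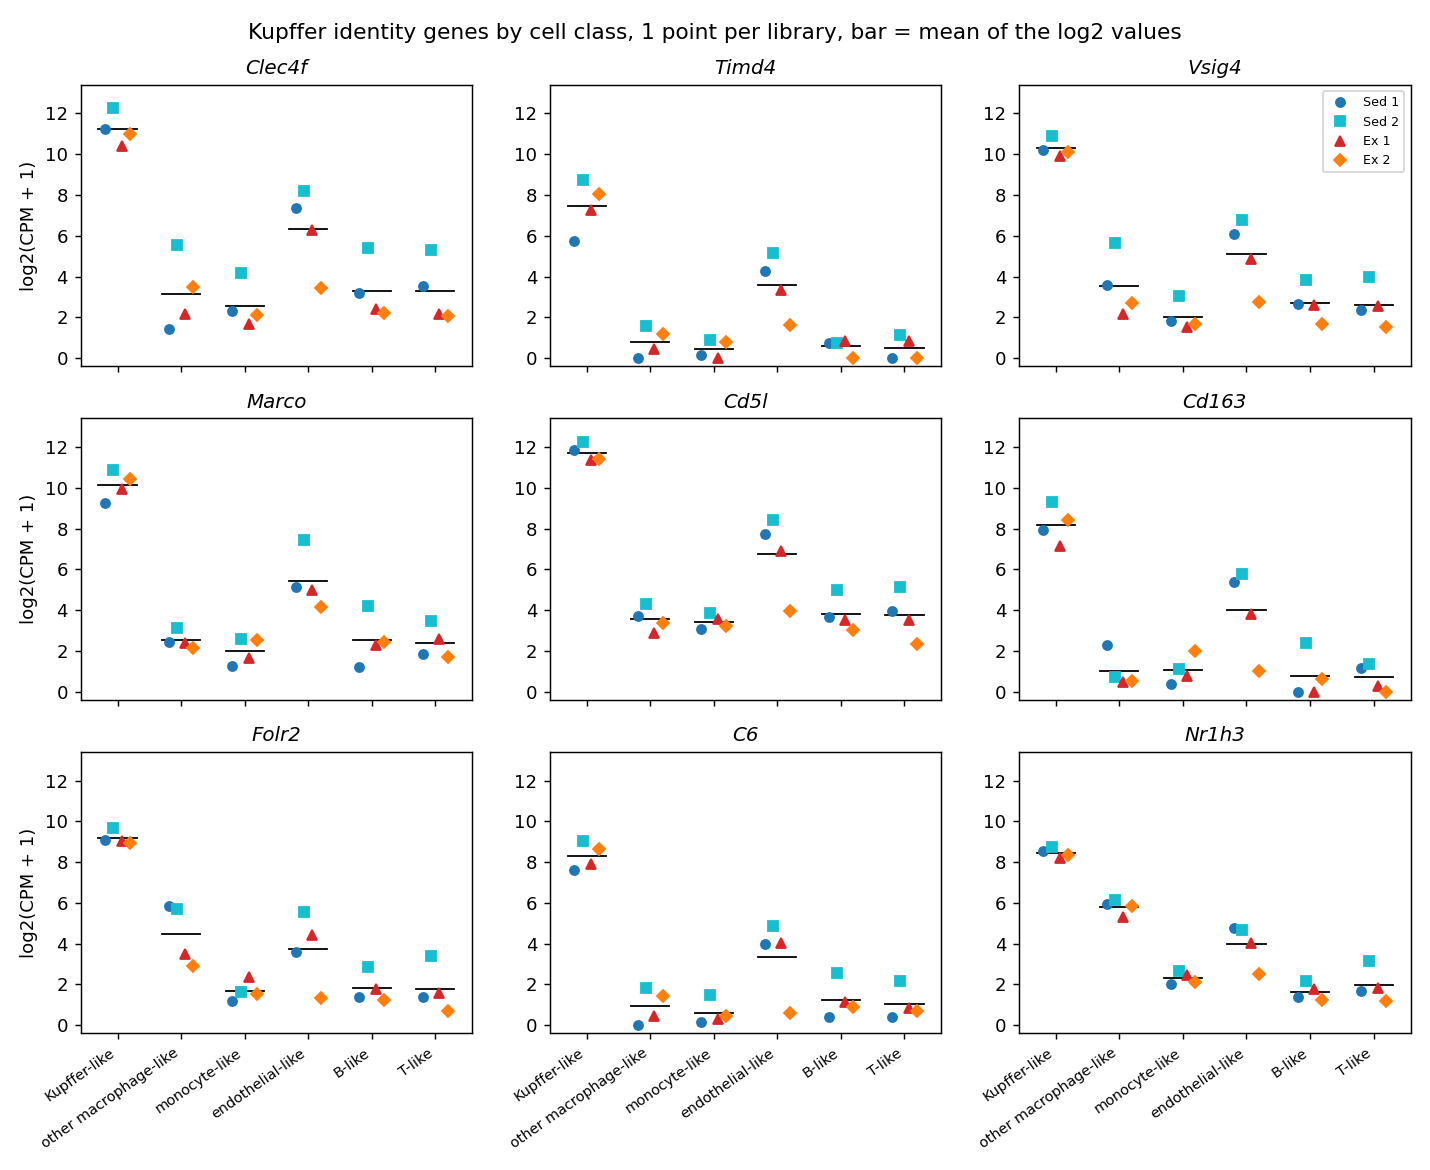
The level of each member, as log2(CPM + 1), in 6 cell classes. Each point is 1 library and each bar is the mean of the 4 log2 values. The Kupffer-like points lie highest in every panel, and the other macrophage-like points of Nr1h3 lie above those of monocyte-like, endothelial-like, B-like and T-like cells.

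Other macrophage-like cells, a cluster led by Cxcl9, Arg1 and Spp1, kept 2 members at a clear level. Nr1h3 stood at 60.3, 69.5, 38.1 and 56.9 CPM in Sed 1, Sed 2, Ex 1 and Ex 2, which was 13.1% to 17.7% of its Kupffer-like level in the same library. Its values in all 4 libraries were above those of every endothelial-like, monocyte-like, B-like and T-like sum. Folr2 stood at 56.4, 50.8, 10.4 and 6.37 CPM, which was 10.3%, 6.26%, 2% and 1.29% of the Kupffer-like level. Its sedentary values were above those of every endothelial-like, monocyte-like, B-like and T-like sum. For the other 7 members the share of the Kupffer-like level was between 0% and 2.51% in each library. Clec4f, for example, had 1.66, 46.3, 3.52 and 10.2 CPM.

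Monocyte-like cells carried next to none of the 9. Their summed level over the 4 libraries was 0.136% of the Kupffer-like level for Timd4, the lowest, and 1.08% for Nr1h3, the highest. B-like cells, which should lack these genes, had 0.147% to 0.507%, and T-like cells 0.136% to 0.811%. In cells thinned to 1000 UMIs, Clec4f had a UMI in 0.32%, 1.75%, 0.32% and 0.6% of monocyte-like cells and in 0.61%, 3.36%, 0.3% and 0.34% of B-like cells. The Clec4f shares in monocyte-like cells were thus at or near those in B-like cells at this depth. For Nr1h3 they were 0.562% to 0.84% in monocyte-like and 0% to 0.406% in B-like cells, with no overlap. In T-like cells they were 0.15% to 0.683%. The monocyte-like and B-like ranges of the other members overlapped. Whether free RNA gave these UMIs was not tested. The median depths were 6690 to 7930 UMIs in monocyte-like and 1626 to 2720 UMIs in B-like cells before thinning. Nr1h3 averaged 13.3 ± 2.74 CPM in the Tppp3-led monocyte-like cluster and 2.07 ± 1.32 CPM in the Chil3-led one in sedentary libraries (SD, n = 2), and 3.95 ± 1.70 and 3.00 ± 4.25 CPM in exercised libraries, where the clusters overlapped.

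Endothelial-like cells had all 9 members at a mean level over the libraries that lay between monocyte-like and Kupffer-like cells. Clec4f stood at 165, 292, 77 and 9.72 CPM in Sed 1, Sed 2, Ex 1 and Ex 2, and Cd5l at 214, 342, 117 and 14.3 CPM. The class was made of different clusters in the groups: a cluster led by Abcc9 held 62 and 188 cells of the sedentary libraries and 1 and 4 of the exercised ones, and a cluster led by Plpp3 held none of the sedentary and 131 and 337 of the exercised cells. Against the Kupffer-like level of the same library, Clec4f in the Abcc9-led cluster stood at 6.86% and 6.02% in Sed 1 and Sed 2, and in the Plpp3-led cluster at 5.8% in Ex 1 and 0.482% in Ex 2. Over the 9 members the shares ran from 2.03% (Folr2) to 35% (Timd4, over a low Kupffer-like level) in Sed 1, from 5.27% (C6) to 9.21% (Marco) in Sed 2, from 2.96% (Vsig4) to 9.28% (Cd163) in Ex 1 and from 0% (C6) to 1.47% (Nr1h3) in Ex 2. Of these 4 libraries Ex 2 had the lowest share for every member. At 1000 UMIs, 88.7% and 84% of the sedentary and 91.7% and 96.8% of the exercised endothelial-like cells had no UMI of any member, while 1.61% and 3.19% of the sedentary cells had 5 or more members. Whether free RNA or attached cells gave these UMIs was not tested.

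Part of the Kupffer-like cells fell into a pair of groups that differed in the score of the naming markers. Clustering at a finer resolution of 2, chosen after the data had been seen, separated core clusters with high scores for the naming markers (268, 858, 229 and 82 cells in Sed 1, Sed 2, Ex 1 and Ex 2) from a low-score cluster (38, 176, 110 and 27 cells) led by Ccl8, Ms4a7, Cx3cr1, Apoe and Cd207. Core cells made up 79.8%, 71.1%, 41.8% and 62.1% of the Kupffer-like cells of these libraries. Low-score cells made up 6.55%, 13.3%, 16.8% and 18.9% of them, and 13.7%, 15.6%, 41.4% and 18.9% fell in neither group. The low-score cluster also held cells from outside the Kupffer-like class. Of the naming markers, Fcna, Apoc1, Spic and Ccl24 followed the mean of the members over clusters (Pearson r = 0.98, 0.96, 0.95 and 0.93). Higher member levels in core cells were thus partly set by the split, and they describe it without a test. In the low-score cluster Marco was at 0, 11, 7.33 and 0 CPM and Timd4 at 0, 22.7, 1.05 and 13.5 CPM, against 728, 2442, 2766 and 2977 CPM of Marco and 64.3, 549, 438 and 545 CPM of Timd4 in core cells. C6 and Cd163 were also low there, at 3.14 to 22.7 CPM and 13.7 to 38.1 CPM. Nr1h3 was kept best, with 82.4, 225, 147 and 162 CPM in the low-score cluster and 429, 488, 545 and 503 CPM in core cells. Clec4f in the low-score cluster stood at 168, 1585, 190 and 247 CPM, with Sed 2 far above the other 3. Cd5l stood at 299, 1022, 739 and 72 CPM there. In each library Clec4f and Cd5l were thus well above Marco and Timd4 in this cluster.

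**Figure D2:**
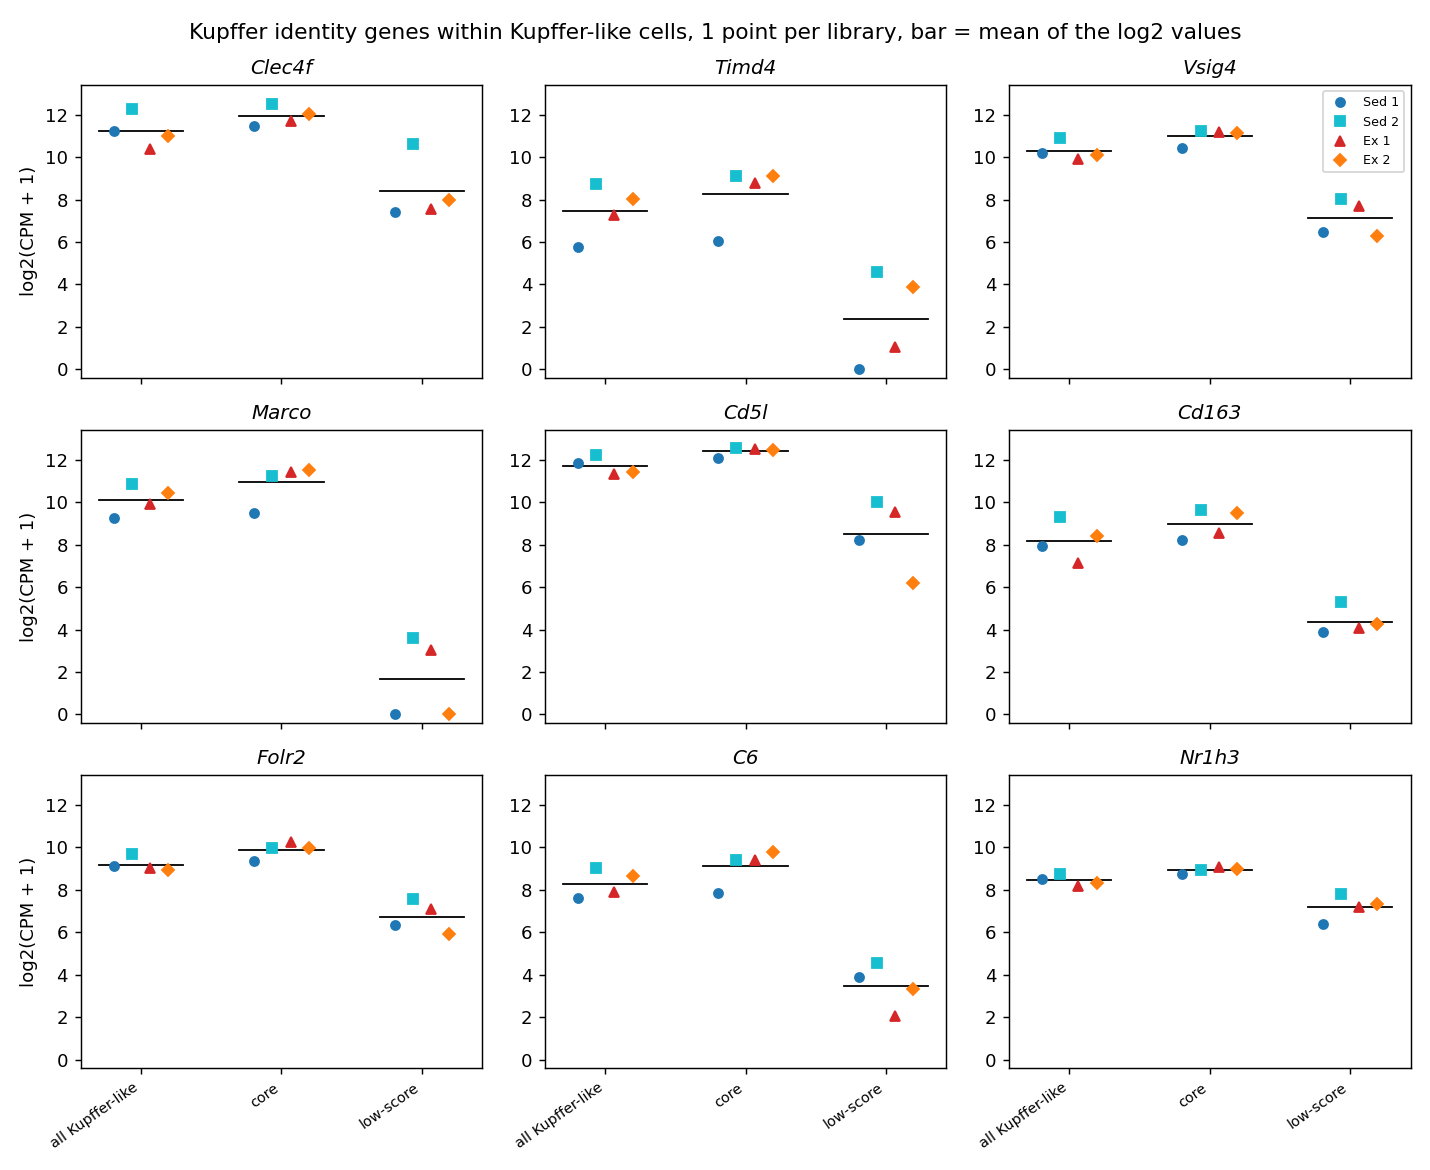
The level of each member, as log2(CPM + 1), in all Kupffer-like cells, in the core clusters and in the low-score cluster. Each point is 1 library and each bar is the mean of the 4 log2 values. Marco falls furthest from core to low-score cells and Nr1h3 least, and Sed 1 is the lowest core library for all 9 members.

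Sed 1 stood apart within core cells, where it was the lowest library for all 9 members, over all core cells and in the core cluster of many UMIs. The core cluster of few UMIs held 190 of the 268 core cells of Sed 1. There an exercised library was lowest for Cd163 (226 CPM) and Nr1h3 (321.5 CPM), and a sedentary library was lowest for the other members. In the core cluster of many UMIs (78, 445, 46 and 26 cells) Timd4 was at 41.6 CPM in Sed 1 and at 570, 553 and 599.5 CPM in Sed 2, Ex 1 and Ex 2. Marco was at 602 CPM against 2484, 2902 and 2977 CPM, and C6 at 254 CPM against 713, 801 and 972 CPM. Nr1h3 did not set Sed 1 apart to that degree, at 469.5 against 497, 668 and 593 CPM. The same library carried the most RNA of monocyte markers among core cells: the 15 markers summed to 5270 CPM in Sed 1 and to 3021, 1872 and 1916 CPM in Sed 2, Ex 1 and Ex 2, and their part in the low Timd4 was not tested.

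From cell to cell, Marco had the highest variance over mean of the members, a ratio that grows with the mean where cells differ. In core cells of many UMIs, each thinned to 4000 UMIs (77, 413, 32 and 16 cells), the variance of its UMI count was 17.9, 11.8, 29.1 and 10.3 times the mean, where counting alone gives 1. Marco had a UMI in 29.9%, 78.2%, 53.1% and 75% of these cells, although at its mean of 2.82, 9.32, 10.8 and 11.9 UMIs a Poisson spread would give 94% to 100%, and single cells reached 73 UMIs. Cd163 had the next highest ratio in the sedentary libraries, with ratios of 5.01 and 2.83, and C6 reached 4.6 in Ex 1. Nr1h3 and Folr2 had ratios of 1.28 to 1.62 and 1.36 to 2.35, at means of 1.86 to 2.94 and 2.73 to 5.22 UMIs. Clec4f and Cd5l were found in nearly every core cell: Cd5l had a UMI in 100% of the cells of all 4 libraries (lower 95% exact binomial bounds 95.3%, 99.1%, 89.1% and 79.4%) and Clec4f in 100%, 99.5%, 100% and 87.5%. Timd4 in Sed 2 came close to an even spread, with a ratio of 1.33 and a UMI in 83.1% of the cells. The intervals cover counting error only.

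**Figure D3:**
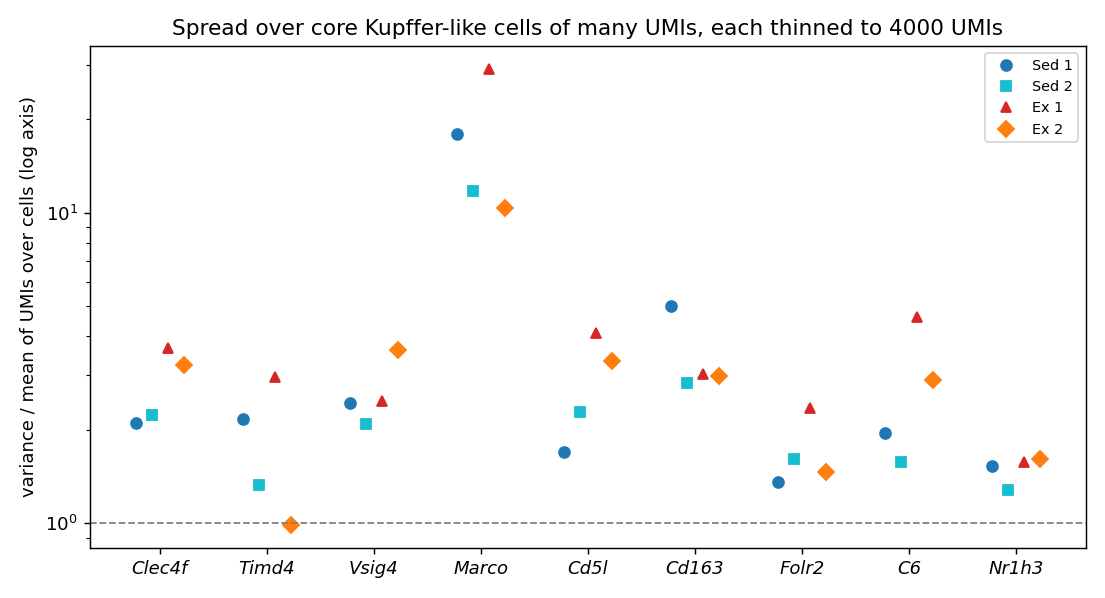
The variance over the mean of UMI counts of each member across core Kupffer-like cells of many UMIs, each thinned to 4000 UMIs, on a log axis. Each point is 1 library, and the dashed line at 1 is counting noise alone. Marco lies at 10.3 to 29.1 in all 4 libraries, above every other member.

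Timd4-positive cells were compared with Timd4-negative ones among macrophage-like cells with a Clec4f UMI, after each cell had been thinned to 1000 UMIs. A negative cell is one without a Timd4 UMI at this depth, and it can still express the gene. The positive share in Sed 1, Sed 2, Ex 1 and Ex 2 was 8.55%, 37.4%, 29.5% and 28% at this depth. At 2000 UMIs it was 7.21%, 52.1%, 30.3% and 57.6%, over fewer cells. The median depths before thinning were 1581, 7280, 2348 and 1829 UMIs in the positive and 6305, 6804, 2236 and 2864 UMIs in the negative cells of Sed 1, Sed 2, Ex 1 and Ex 2, so the cells still differed in original depth, most in Sed 1. There were 13 positive and 139 negative cells in Sed 1, 263 and 440 in Sed 2, 33 and 79 in Ex 1 and 14 and 36 in Ex 2. All positive cells were core cells, as were 134, 336, 58 and 30 of the negative cells in this order. Positive cells had more Marco, Cd163 and C6. Of the 7 members tested, 3 rose and none fell, where 1.27% of the 1103 genes tested were called, 0.635% in each direction (edgeR quasi-likelihood test with the library as a block, adjusted p under 0.05), and the median log2 change was 0.50 over the 7 members and -0.01 over all genes. Timd4 and Clec4f define the cells and were not tested. Without the library block no gene and no member was called, and without the filter on low counts Marco alone of the members was.

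Marco stood at 5154, 2684, 6758 and 7357 CPM in the positive cells of Sed 1, Sed 2, Ex 1 and Ex 2 and at 741, 1611, 2000 and 1722 CPM in the negative cells. Every positive sum was above every negative one, and the log2 change was 1.63 ± 0.19 (SE, edgeR adjusted p = 8.2e-10). Cd163 stood at 1000, 1015, 758 and 1286 CPM in positive and at 223, 548, 354 and 556 CPM in negative cells, again with no overlap. Its log2 change was 1.06 ± 0.20 (edgeR adjusted p = 0.00012). C6 stood at 385, 776, 1788 and 1714 CPM in positive and at 194, 439, 722 and 528 CPM in negative cells, higher in the positive cells of each library. Its log2 change was 1.04 ± 0.19 (edgeR adjusted p = 9.6e-05), but it rested in Sed 1 on 5 UMIs and its adjusted p was 0.051 without Ex 1.

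The other 4 members did not pass the test. Folr2 was higher in the positive cells of 4 of 4 libraries, at 769, 1171, 2212 and 1500.0 CPM against 698, 777, 1177 and 1250.0 CPM, with a log2 change of 0.50 ± 0.19 (edgeR adjusted p = 0.28). Vsig4 and Cd5l were higher in 3 of 4 libraries, with log2 changes of 0.34 ± 0.18 and 0.32 ± 0.16 (edgeR adjusted p = 0.58 and 0.51). Nr1h3 was higher in 2 of 4, with 0.09 ± 0.19 (edgeR adjusted p = 0.97). For comparison, 10.3% of all genes were higher in the positive cells of all 4 libraries and 8.79% were lower. Without thinning, all 7 were called higher among 5287 genes of which 8.42% were called (4.31% higher, 4.1% lower), but there the positive cells of Sed 2 had a median of 7515 UMIs and its negative cells 1192. Among core cells alone, Cd163 and C6 stayed past the threshold, at 0.77 ± 0.20 and 0.74 ± 0.19 (edgeR adjusted p = 0.038 for both), and Marco did not, at 1.37 ± 0.45 (edgeR adjusted p = 0.80). In that comparison Marco was still higher in the positive cells of 4 of 4 libraries, most in Sed 1 (5154 against 769 CPM) and least in Sed 2 (2684 against 2107 CPM). Among core cells without thinning, all 3 were called higher, where 1.8% of genes were called (0.777% higher, 1.02% lower), with Marco at 1.66 ± 0.31 (edgeR adjusted p = 0.048).

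**Figure D4:**
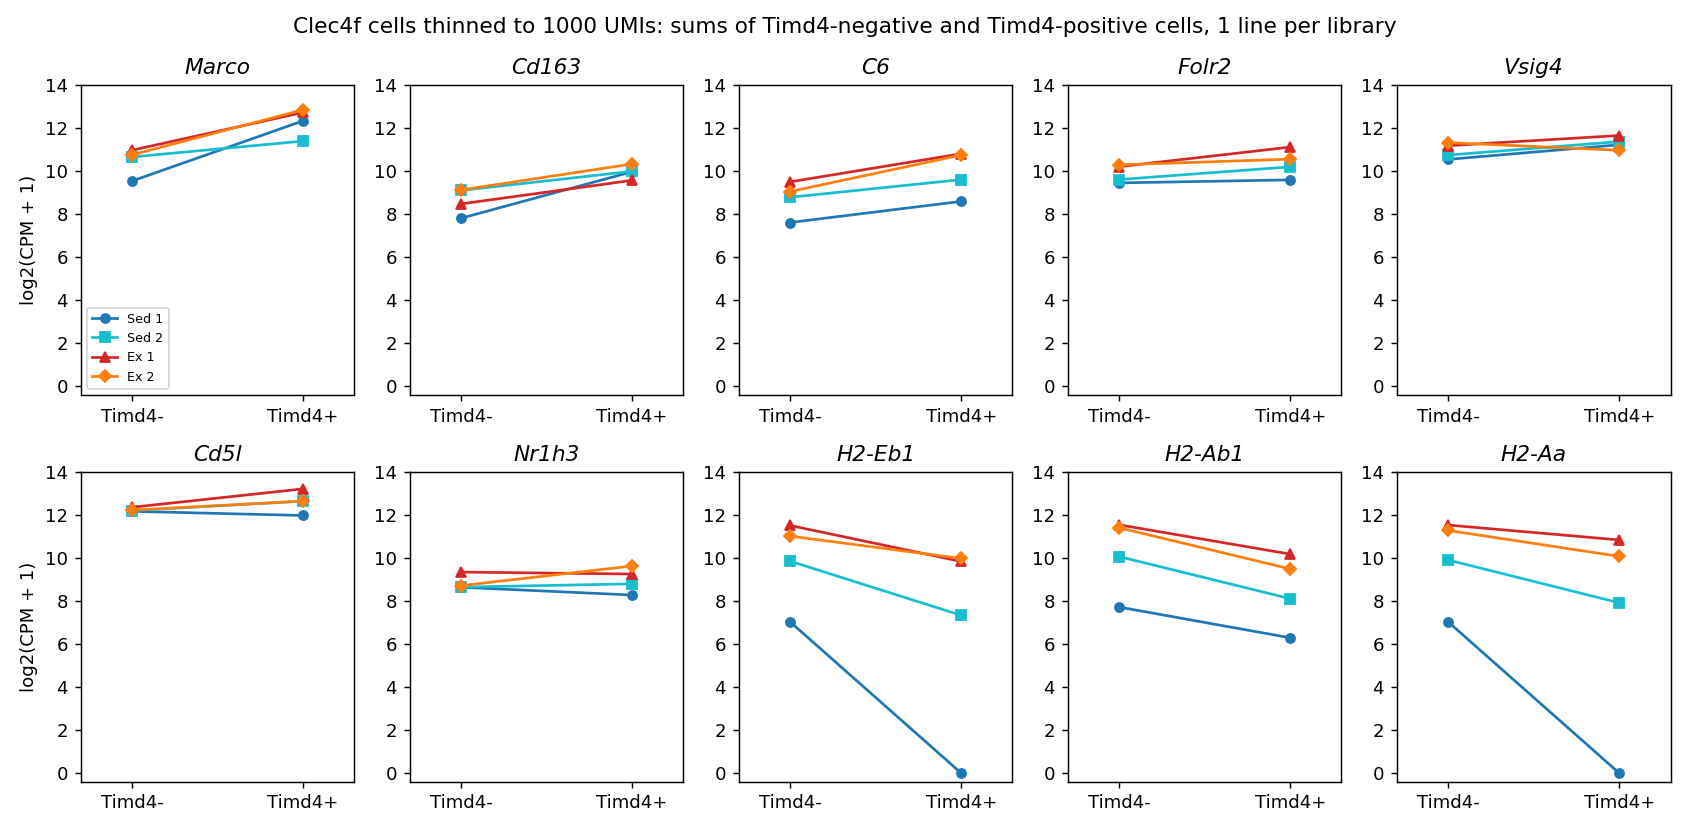
Levels, as log2(CPM + 1), of the 7 members tested and of 3 MHC class II genes in Timd4-negative and Timd4-positive Clec4f cells thinned to 1000 UMIs. Each line joins the sums of 1 library. The lines rise in all 4 libraries for Marco, Cd163, C6 and Folr2 and fall in all 4 for the MHC class II genes.

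The same split held genes outside the members, and their values are those over all Clec4f cells, core or not. Fewer genes were called among core cells alone, as given with the processing alternatives. MHC class II genes encode the molecules that show antigen to helper T cells, and of 11 listed, 6 were tested and 4 fell in the positive cells, with a list median of -1.23. The 13 B cell markers summed to 0, 72.2, 60.6 and 143 CPM in the positive cells of Sed 1, Sed 2, Ex 1 and Ex 2 and to 71.9, 114, 190 and 444 CPM in the negative cells, lower in the positive cells of each library, and their part in the split was not tested. H2-Eb1 stood at 0, 160, 909 and 1000 CPM in the positive cells of Sed 1, Sed 2, Ex 1 and Ex 2 and at 129.5, 918, 2899 and 2056 CPM in the negative cells, a log2 change of -2.01 ± 0.23 (edgeR adjusted p = 5.0e-10). H2-Ab1, H2-Aa and the invariant chain gene Cd74 changed by -1.79 ± 0.21, -1.43 ± 0.22 and -1.03 ± 0.18, with Cd74 not lower in Sed 1, at 923 against 799 CPM. Of 20 other Kupffer identity genes, 18 were tested and 2 rose, the ficolin gene Fcna by 0.76 ± 0.19 and the apolipoprotein gene Apoc1 by 0.62 ± 0.17. Of 23 complement genes, 10 were tested and C4b rose by 0.75 ± 0.20 (edgeR adjusted p = 0.034), with Sed 1 the other way at 308 against 338 CPM. The chemokine gene Cxcl13 rose by 1.17 ± 0.19, and the langerin gene Cd207, a leading gene of the low-score cluster, fell by 2.17 on the log2 scale (edgeR adjusted p = 8.9e-06 and 1.7e-06). Without thinning Cd207 was at -1.37 and no longer called (edgeR adjusted p = 0.15). Ms4a4c and Fxyd5, which encodes a regulator of the sodium pump, fell by 1.62 and 1.04. These 7 risen and 7 fallen genes, members included, are all that were called.

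No member of the other lists passed in this split, although few were measurable at 1000 UMIs. LXR pathway genes, which include targets of the Nr1h3 product, had 10 of 18 tested and a median of 0.22, with the lipoprotein gene Apoe at -0.41 ± 0.14 (edgeR adjusted p = 0.18) and the coactivator gene Ncoa4 at 0.59 ± 0.24 (0.36). Macrophage transcription factors had 13 of 25 tested, with Zeb2 at -0.41 ± 0.20 and Cebpb at -0.40 ± 0.21 (edgeR adjusted p = 0.51 and 0.56). Scavenger receptors had 5 of 13 tested, with the lysosomal receptor gene Scarb2 at 0.56 ± 0.22 and the mannose receptor gene Mrc1 at 0.32 ± 0.19, and Mrc1 was also the only 1 of 10 second Kupffer subset genes tested. Efferocytosis genes had 8 of 19 tested, with the TAM receptor gene Axl at 0.27 ± 0.19 and Cd300a at 0.26 ± 0.21. Monocyte-derived macrophage genes had 6 of 18 tested, with the lipid receptor gene Trem2 at -0.60 ± 0.27 (edgeR adjusted p = 0.44). Interferon-stimulated genes had 12 of 22 tested, with Isg15 at -0.75 ± 0.21 and Oasl1 at -1.04 ± 0.35 (edgeR adjusted p = 0.055 and 0.18). Cell cycle genes had 3 of 15 tested, with the chromatin genes Hmgb2 at -0.37 ± 0.30 and H2afz at -0.15 ± 0.21. The summed level of the 7 erythroid markers was 3145 CPM in the negative and 57 CPM in the positive cells of Sed 2 and at most 79.1 CPM in the other 6 sums, and its part in the split was not tested.

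The share of Clec4f cells with a Timd4 UMI, at 1000 UMIs, was 8.55% in Sed 1 (95% exact binomial interval 4.63% to 14.2%), 37.4% in Sed 2 (33.8% to 41.1%), 29.5% in Ex 1 (21.2% to 38.8%) and 28% in Ex 2 (16.2% to 42.5%). Both exercised libraries lay between the sedentary ones. The means were 23% ± 20.4 (SD, n = 2) in sedentary and 28.7% ± 1.04 (SD, n = 2) in exercised mice, and the exact two-sided permutation test gave p = 1, where 2 against 2 libraries cannot go below 0.333. Unthinned shares were 13.5%, 55.2%, 30.3% and 47.3%. In B-like cells, which should lack the gene, the thinned share with a Timd4 UMI was 0%, 0%, 0.1% and 0%. The change of the 7 members between Timd4-positive and Timd4-negative cells did not pass a test of its difference between exercised and sedentary libraries: no member and none of 1103 genes was called (edgeR interaction, 0% called), and 63 genes but no member had an unadjusted p under 0.05. Without thinning, 0.0757% of 5287 genes and no member were called. DESeq2 was not run on that interaction.

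In exercised against sedentary Kupffer-like cells no member passed the test, where 0.399% of 8518 genes did (edgeR adjusted p under 0.05). All 9 log2 changes were below 0, with a median of -0.41 against 0.01 over all genes, and 5 members (Clec4f, Cd5l, Vsig4, Folr2 and Nr1h3) did not overlap between groups and were lower in exercised mice, which 23% of all genes also were. A cluster of few UMIs (median 887) held 69.9% and 49.8% of the sedentary and 74.8% and 61.4% of the exercised Kupffer-like cells. There only Nr1h3 of the 5 did not overlap. Folr2 averaged 569.5 CPM in sedentary and 692 CPM in exercised mice there, while the other means of the 5 were lower in exercised mice. In the cluster of many UMIs the 5 did not overlap and were lower. The largest change over the class was that of Clec4f, a log2 change of -1.07 ± 0.37 (edgeR adjusted p = 0.35). Its mean was 3632 ± 1724 CPM in sedentary mice against 1700 ± 509 CPM in exercised mice (SD, n = 2 each). Cd163 changed by -0.87 ± 0.64, Cd5l by -0.65 ± 0.23, Vsig4 by -0.56 ± 0.28, Folr2 by -0.41 ± 0.26, Nr1h3 by -0.36 ± 0.23, Timd4 by -0.22 ± 1.24, C6 by -0.16 ± 0.54 and Marco by -0.06 ± 0.55, with edgeR adjusted p from 0.33 to 0.99. Clec4f and Cd5l were the 2 members with an unadjusted p under 0.05, as were 901 of 8518 genes. DESeq2 called 72 genes and 0 members.

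This comparison changed with the sedentary library left out, and the fits without Ex 1 or Ex 2 enter the ranges given at the end. Without Sed 1, 6 members fell (Clec4f, Cd163, Timd4, Vsig4, Cd5l and Marco), by 1.48 for Clec4f and 1.03 for Timd4 on the log2 scale, where 3.39% of genes were called, 1.64% higher and 1.75% lower. Without Sed 2, Timd4 rose by 1.95 ± 0.35 and Marco by 0.96 ± 0.22 and no member fell, where 5.29% were called, 2.7% higher and 2.59% lower. Timd4 and Marco thus changed direction with the library left out. Cells outside the core clusters made up 58.2% of the Kupffer-like cells of Ex 1 and 20.2% of those of Sed 1. In Ex 1, 16.8% of the Kupffer-like cells were low-score cells and 41.4% were neither core nor low-score. Ex 1 also held the most erythroid marker RNA in this class, 7393 CPM over 7 markers against 21.3 to 395 CPM in the other 3 libraries, and Ex 2 the most B cell marker RNA, 3839 CPM over 13 markers against 69.9 to 226 CPM. At 1000 UMIs, 39.9% and 30.8% of the exercised Kupffer-like cells had no UMI of any member, against 16.6% and 12.4% of the sedentary ones.

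In core cells alone the picture differed. No member passed the test (0.0559% of 7158 genes called, smallest member edgeR adjusted p = 0.61), none had an unadjusted p under 0.05, and DESeq2 called 0 members. The median log2 change was 0.24, with 7 members above 0 and 2 below. Marco averaged 1585 ± 1212 CPM (SD, n = 2) in sedentary and 2872 ± 149 CPM in exercised mice, a change of 0.84 ± 0.50, and Nr1h3 at 458 ± 41.3 and 524 ± 29.6 CPM, a change of 0.17 ± 0.25. These were the 2 members whose exercised libraries were both above the sedentary ones, as were those of 23.5% of all genes. Clec4f was at 4341 ± 2109 and 3752 ± 535 CPM, a change of -0.23 ± 0.34. Without Sed 1, Clec4f fell by 0.65 on the log2 scale (edgeR adjusted p = 0.030) and no other member was called, where 0.853% of genes were called, 0.427% in each direction. Without Sed 2, Timd4, Marco, C6 and Vsig4 rose by 2.85 ± 0.36, 1.90 ± 0.22, 1.67 ± 0.30 and 0.64 ± 0.21, where 6.12% were called, 2.66% higher and 3.46% lower.

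**Figure D5:**
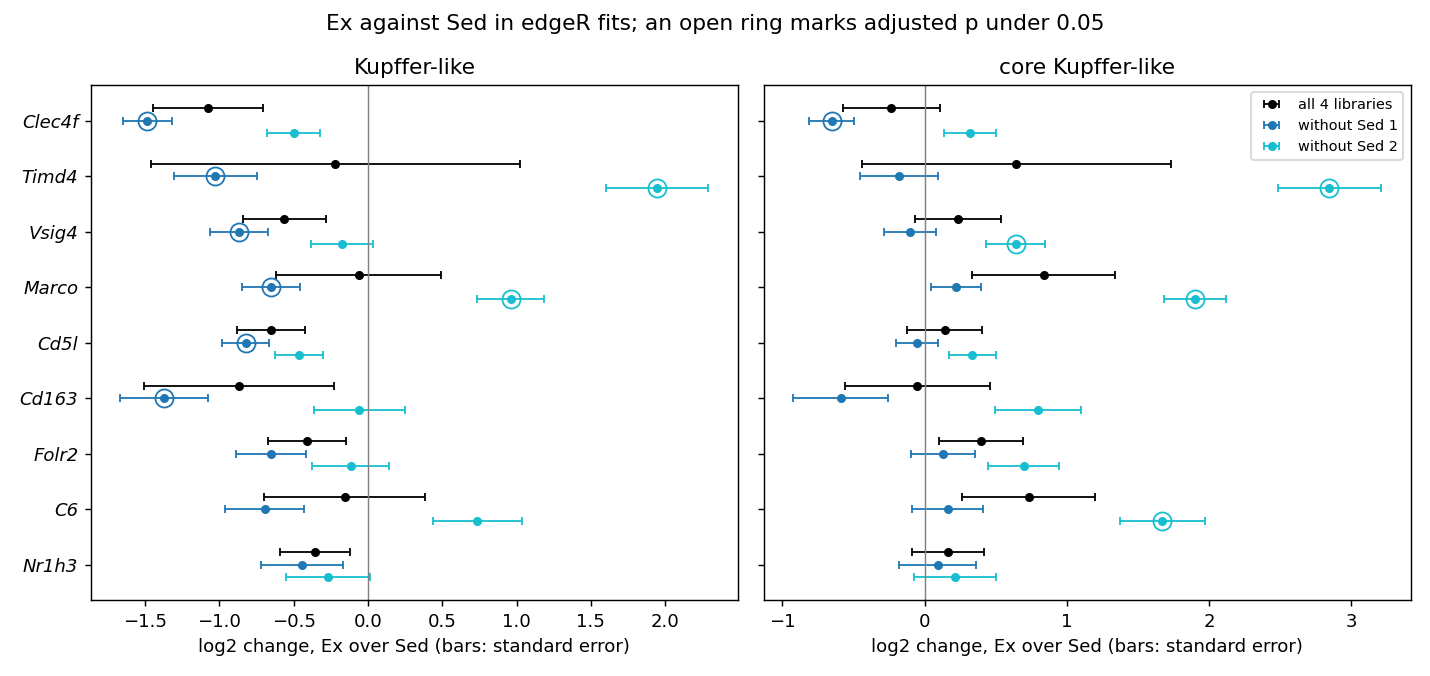
The log2 change of each member from sedentary to exercised libraries in all Kupffer-like and in core Kupffer-like cells, with its standard error, using all 4 libraries, without Sed 1 and without Sed 2. Open rings mark an edgeR adjusted p under 0.05. With all 4 libraries no member carries a ring, while Timd4 and Marco lie on opposite sides of 0 in Kupffer-like cells depending on which sedentary library is left out.

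Over all macrophage-like cells together, the members changed by -1.40 ± 0.30 (Nr1h3) to -2.82 ± 0.62 (Clec4f), and none passed the test at a smallest edgeR adjusted p of 0.059, where 2.22% of 10519 genes were called, 1.42% higher and 0.799% lower. Here 7 members had an unadjusted p under 0.05, as did 1856 of 10519 genes. DESeq2 called 5 members lower, among 432 genes called in either direction. Between groups 8 members had no overlap, as did 30.9% of all genes in that direction. Clec4f stood at 1042, 3874, 303 and 351.5 CPM in Sed 1, Sed 2, Ex 1 and Ex 2. Kupffer-like cells made up 60.9%, 86.7%, 43.2% and 31.8% of the macrophage-like cells in the same order. They held 1373078, 6085501, 1561409 and 470408 of the 3181852, 7639301, 6966896 and 2824806 UMIs of the class. The part of this make-up in the sums was not tested. Timd4 was lowest in Sed 1, at 22.9 CPM. Without Sed 1 all 9 members fell (14.1% of genes called, 7.27% higher and 6.85% lower), and without Sed 2, 6 fell (8.5% called, 4.58% higher and 3.92% lower).

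In other macrophage-like cells Folr2 was lower in exercised mice over the whole class, while the groups overlapped within its clusters. From the 4 levels given above, which rest on 102, 79, 56 and 15 UMIs, its log2 change was -2.55 ± 0.28 (edgeR adjusted p = 0.0004). It was the only 1 of the 5 members tested that was called, where 3.25% of 8806 genes were (1.29% higher, 1.95% lower). With each library left out in turn, the Folr2 change ran from -2.30 to -3.03. At resolution 2, however, the class was made of a cluster led by Cxcl9, with 35 and 58 sedentary and 678 and 244 exercised cells, and a cluster led by Arg1 and Spp1, with 167 and 110 sedentary and 16 and 18 exercised cells. Folr2 stood at 3.88, 8.33, 4.79 and 4.29 CPM in the Cxcl9-led cluster of Sed 1, Sed 2, Ex 1 and Ex 2, where it was too low to be tested. In the Arg1-led cluster it stood at 62, 70.5, 128 and 34.8 CPM, the exercised values resting on 15 and 4 UMIs, with a log2 change of 0.32 (edgeR adjusted p = 0.86). The groups overlapped in both clusters, on too few UMIs to tell whether Folr2 changed within them. The part of the cluster make-up in the difference over the class was not tested. The Folr2 change in other macrophage-like cells was not tested against that in Kupffer-like cells. Nr1h3 changed by -0.43 ± 0.23 (edgeR adjusted p = 0.35). Cd5l, Vsig4 and Clec4f changed by -0.98 ± 0.37, -2.72 ± 0.80 and -1.89 ± 1.75 at levels of at most 48.3 CPM, with edgeR adjusted p of 0.17, 0.18 and 0.66. Without Sed 1 these 3 were also lower in exercised mice, with Sed 2 as the only sedentary library, and without Sed 2 Clec4f lay at 1.89 ± 0.90. Of the 5, 4 did not overlap between groups and were lower in exercised mice, as were 29.3% of all genes. DESeq2 called Folr2 and Vsig4, among 220 genes. The class held 216 and 185 sedentary and 720 and 283 exercised cells.

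In monocyte-like cells 6 members were tested and none was called, where 2.22% of 10323 genes were (1.39% higher, 0.823% lower). No member had an unadjusted p under 0.05 and DESeq2 called 0. Without Sed 1, Clec4f and Vsig4 were lower in exercised mice, with Sed 2 as the only sedentary library. Their levels there were at most 17.2 CPM. The Chil3-led cluster of this class held 1038 and 957 sedentary and 50 and 45 exercised cells and the Tppp3-led one 224 and 484 sedentary and 577 and 289 exercised cells, so different clusters held most of the class in the groups. In endothelial-like cells Timd4, Cd163 and Nr1h3 fell, by 2.89, 3.53 and 1.76 on the log2 scale (edgeR adjusted p = 0.0048, 0.031 and 0.034), where 13% of 8740 genes were called, 5.56% higher and 7.48% lower. All 9 changes were below 0, and 7 members did not overlap between groups, as 19.4% of all genes did not in that direction and 39.1% in the other. Which members passed the threshold changed with the sedentary library left out. The sedentary and exercised cells of this class came from different clusters, as given above, so cluster and group cannot be told apart. Timd4 in these sums was at 18.6 and 34.6 CPM in sedentary and 8.99 and 2.05 CPM in exercised libraries.

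Genes that work with the members were counted in the same comparison of Kupffer-like cells. Of 20 other Kupffer identity genes all were tested and 3 fell in exercised mice: the chemokine gene Ccl24 from 558 and 983 to 163 and 210.5 CPM, the fatty acid binding protein gene Fabp7 from 1177 and 902 to 262 and 319 CPM, and the BMP target gene Id1 from 199 and 258 to 58.9 and 76.5 CPM (log2 changes -2.03 ± 0.32, -1.83 ± 0.27 and -1.76 ± 0.27, edgeR adjusted p = 0.041, 0.035 and 0.038). The 34 genes called in Kupffer-like cells became 0 with sums thinned to the smallest total, 2 with the members among the variable genes, 3 at resolution 2 and 5 at resolution 0.5, so the calls of all lists here depend on these settings. In core cells none of the 20 was called, with Id1 at -2.34 ± 0.39 and Ccl24 at -1.38 ± 0.35 (edgeR adjusted p = 0.15 and 0.34). Of the 18 LXR pathway genes none was called, the smallest p being those of the transporter gene Abca9 at 0.90 ± 0.29 and of Tmem135 at 0.64 ± 0.31 (edgeR adjusted p = 0.28 and 0.53), and the list median was -0.06. Of 13 scavenger receptors 11 were tested and none was called, with Stab1 at 1.52 ± 0.27 and Scarb1 at -0.88 ± 0.23 (edgeR adjusted p = 0.051 and 0.17). Of 23 complement genes 16 were tested and C3, the source of the fragments that the Vsig4 product binds, rose by 1.90 ± 0.32 (edgeR adjusted p = 0.045). MHC class II had 1 of 9 tested genes called, H2-Eb1, which rose by 2.64 ± 0.37, and in core cells 3 of 7, H2-Aa, H2-Ab1 and H2-Eb1, which rose by 3.14 ± 0.31, 2.79 ± 0.29 and 3.33 ± 0.34. The 13 B cell markers in core cells were also higher in exercised mice, at 57.3 and 86.8 CPM in sedentary and 185 and 480 CPM in exercised libraries, and their part in this rise was not tested. These 3 MHC calls and that of Cx3cr1 in core cells, 4 genes in all, became 0 without Ex 1 and 0 without Ex 2. The fractalkine receptor gene Cx3cr1 was the other gene called in core cells, and it rose by 2.55 ± 0.28. Efferocytosis receptors and bridges had 0 of 15, second Kupffer subset genes 0 of 7, cell cycle genes 0 of 15, macrophage transcription factors 1 of 24 (Id1), interferon-stimulated genes 2 of 21 (Oasl1 and Ifit3, both lower) and monocyte-derived macrophage genes 1 of 18 (Plac8, lower). Outside the lists, the largest rises in Kupffer-like cells were those of the chemokine gene Cxcl9 (4.30 ± 0.44), Cd93 (2.69 ± 0.25), Ahnak, Slamf7, Mef2c and AU020206, and Hilpda and Ms4a8a were among the largest falls, by 1.95 and 1.73. Cxcl9 also led the other macrophage-like cluster.

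By pattern over the 28 clusters of at least 30 cells, the non-member gene most like the mean of the 9 members was Fcna (Pearson r = 0.98 on log2(CPM + 1), among 6517 genes with at least 50 CPM in a cluster). Chp2, Paqr9, Cxcl13, Igf1, Apoc1, Pdgfc, Spic, Epb41l3 and Ccl24 followed, with r from 0.98 to 0.93. For Clec4f the 3 most alike were Fcna, Chp2 and Cxcl13 (r = 0.97, 0.96 and 0.96), and for Timd4 Fcna, Cxcl13 and Igf1 (r = 0.96, 0.95 and 0.94). Fcna, Spic, Apoc1 and Ccl24 were among the markers that named the clusters. Between members, r ran from 0.83 for Marco and Nr1h3 to 0.99 for Marco and Cd5l. The clusters share libraries and free RNA, so these values describe the pattern and carry no test.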

How the data were processed

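The values are UMI counts per gene and cell from 10x 3′ libraries, which the authors aggregated with Cell Ranger: 7.0.0 per the submitters' processing notes (mm10, GRCm38), 6.1.1 per the file headers. Whether read depth was equalised is not given in the sources used here. Of 51140 matrix columns, 28525 had a barcode and held 135480097 UMIs. The remaining 22615 were not used. Each barcode's library number was taken as the row of the deposited aggregation table, whose library names match the labels. Libraries shared 83 barcode sequences (0.582% of barcodes).

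Cells needed 200 genes and no more than 10% mitochondrial UMIs. Automatic doublet thresholds marked under 0.5% of cells in 3 libraries, so doublets were instead taken as the top scores, 0.8% for each 1000 cells (422, 462, 293 and 144 in Sed 1, Sed 2, Ex 1 and Ex 2). Clusters came from scanpy 1.11.5 and leidenalg 0.10.2 (2000 variable genes without the members, 30 components, 15 neighbours, resolution 1). Names rested on other markers at a mean log2 score of 1 or more, 2 for Kupffer-like and 4 for core clusters, with those minimums set after the clusters were seen. The Kupffer-like clusters had median depths of 887 and 8272 UMIs.

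Library sums per class were tested with edgeR 4.0.16 in R 4.3.3 (quasi-likelihood F test, robust, filterByExpr, TMM, Benjamini-Hochberg over all genes, threshold 0.05), and each SE was derived from the fitted change and F. DESeq2 1.42.0 was an alternative. Shares and the Timd4 split used cells thinned to 1000 UMIs, leaving out shallower ones. Fits were tested on simulated counts. The text names all members, up to 4 called genes per list or else the 2 of smallest p, and in 2 comparisons the 8 largest rises and falls of at least 50 CPM without overlap. Upstream sequences matched all 9 members. Members, lists and comparisons were chosen with earlier results of these data known. Alternatives were another cell filter, doublets kept, other resolutions, other thinning, a replicate block and each library left out, and those on core cells and on single other macrophage-like clusters were added after seeing the data.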

Additional observations from a re-analysis of the deposited data

How the results depend on the processing

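Across classes, Clec4f and Nr1h3 were followed under 5 cell filter, doublet and clustering alternatives and stayed highest in Kupffer-like cells, while at resolution 0.5 Clec4f in other macrophage-like cells passed its endothelial-like level (151 CPM). Means over the 4 libraries shifted as follows. At resolution 0.5 Clec4f in other macrophage-like cells was 207 CPM (15.4 as reported), and Nr1h3 was 419 CPM in Kupffer-like (350.6) and 79.3 CPM in other macrophage-like cells (56.2). In endothelial-like cells Nr1h3 was 29.2 CPM with the stricter cell filter and 40.2 CPM with doublets kept (17.6), and Clec4f 285 CPM with doublets kept (136). With doublets kept the Kupffer-like cluster of few UMIs could not be named.

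For exercised against sedentary mice, DESeq2 called 432 genes and 5 members in macrophage-like cells, 72 genes in Kupffer-like, 29 in core, 378 in monocyte-like and 516 in endothelial-like cells, and 2 members in other macrophage-like cells. Without the low-count filter, the genes and members called were 1207 and 4 in macrophage-like, 335 and 1 in Kupffer-like, 826 and 2 in other macrophage-like and 1102 and 1 in monocyte-like cells, with 128 genes in core cells and 5 members in endothelial-like cells. A replicate block called 145 genes in macrophage-like, 100 in Kupffer-like, 64 in core, 448 genes and 2 members in other macrophage-like, 653 and 1 in monocyte-like and 749 and 1 in endothelial-like cells. The replicate numbers are only shared: same-numbered libraries deviated with a correlation of -0.035 to 0.161 over the 6 classes. In macrophage-like cells, 52 genes were called with doublets kept, and 2 members at resolution 0.5, 1 with the stricter filter and 1 with thinned sums. In Kupffer-like cells 22 genes were called with doublets kept, 2 with members among the variable genes, 5 at resolution 0.5, 3 at resolution 2, 4 in core clusters, 0 with thinned sums and 64 without the cluster of few UMIs. In other macrophage-like cells 40 genes and 0 members were called in the Cxcl9-led cluster alone and 0 and 0 in the Arg1-led one, where Folr2 was 0.32, Vsig4 0.28 and Nr1h3 0.32 (0.03 in the Cxcl9-led cluster). These clusters hold fewer cells and were chosen after the data were seen. The causes were not tested.

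In Kupffer-like cells the direction turned for Timd4 (0.65 in core clusters, 0.39 with the replicate block, 0.27 at resolution 0.5), Marco (0.84, 0.13 and 0.46, and 0.09 with thinned sums), C6 (0.73 in core, 0.37 at resolution 0.5), Folr2 (0.40 and 0.12), Vsig4 (0.24), Cd5l (0.14) and Nr1h3 (0.17 in core). Cd163 in core cells was 0.06 with the replicate block. In the Timd4 split 6 members and 133 genes were called over any kept cell, 8 genes with doublets kept, 5 in core cells, 67 in core cells without thinning, 445 genes and 7 members without thinning, 1 member without the low-count filter, and 0 genes and 0 members without the library block. Without the low-count filter Vsig4, Cd5l and Nr1h3 were -0.05, -0.05 and -0.21 there, and Nr1h3 was -0.08 in core cells. The difference of that split between groups had 4 genes called without thinning.

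Leaving out 1 library gave 4 to 472 genes and 0 to 6 members called in Kupffer-like, 0 to 403 and 0 to 4 in core, 3 to 1611 and 0 to 9 in macrophage-like, 156 to 1115 and 1 to 4 in other macrophage-like, 0 to 1391 and 0 to 2 in monocyte-like and 384 to 1471 and 1 to 8 in endothelial-like cells, and 10 to 19 genes and 2 to 3 members in the Timd4 split. The share of Clec4f cells with a Timd4 UMI then differed by -8.68 to 20.2 points. In Kupffer-like cells Timd4 ranged from -1.03 to 1.95, Marco from -0.65 to 0.96 and C6 from -0.69 to 0.74. In macrophage-like cells Timd4 ranged from -3.02 to 0.83, and in other macrophage-like cells Clec4f from -2.91 to 1.89. In core cells Clec4f ranged from -0.65 to 0.32, Timd4 from -0.18 to 2.85, Vsig4 from -0.10 to 0.64, Cd5l from -0.05 to 0.33 and Cd163 from -0.60 to 0.80. With 1 library in an arm, that library is assumed to vary like the others. At 1000 UMIs a cell, 1103 genes could be tested, so genes of low level were out of reach.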
